A study of Mus musculus with 8 samples.

Results

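Macrophage identity and scavenger receptor genes were examined in cultured murine megakaryocytes (MKs). The group comprised 10 genes, Csf1r, Adgre1, Cd68, Mrc1, Msr1, Cd163, Vsig4, Mertk, Axl and Maf, found in the count matrix by gene symbol. Of the 13387 genes in the matrix, 9 were members of the group, and Vsig4 had no row. After a filter on low counts, 8 members were among the 11722 genes tested, and Cd163 was not.

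Bulk RNA-Seq was performed on wild-type C57BL/6 bone marrow MKs that were cultured for 18 hours either alone (4 libraries) or with wild-type bone marrow MSCs (4 libraries), to ask how MSC coculture alters their transcripts. The MSCs had been sorted as CD45-Ter119-CD31-CD51+CD140a+ cells, and both groups were kept in medium with murine thrombopoietin. The starting cells were MK enriched rather than pure, since they were captured from marrow with CD41 beads and large cell columns, and the suspension cells were parted from adherent MSCs by hand. Wells were pooled for each library, and the labels describe MKs separated from platelets where the paper describes platelets. No library was a culture of MSCs or of macrophages.

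Macrophages are tissue phagocytes whose survival depends on signaling through the CSF1 receptor, a tyrosine kinase encoded by Csf1r. In the bone marrow, they clear dying cells and the nuclei expelled by erythroblasts, and they degrade the engulfed material in lysosomes. Scavenger receptors bind modified lipoproteins, microbes and other polyanionic ligands, whereas the TAM receptors (TYRO3, AXL and MERTK) recognize phosphatidylserine on apoptotic cells through the bridging ligands GAS6 and protein S.

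The proximal promoters of 4 members are shown because their transcripts moved in different ways between groups: Cd68, Axl and Mrc1 rose, and Cd163 was found at few counts. Each run is the 250 bases before the transcript start of the RefSeq gene, on build GRCm38.p6 and in the direction of the gene, from 5′ to 3′. Distances are counted from that RefSeq start. The gene positions given below come from GENCODE, and the end of the Mrc1 run lies past the GENCODE start of Mrc1. Capitals mark a PU.1 core (GAGGAA), an AP-1 and Maf core (TGAGTCA) or a GC box (GGGCGG), each searched on both strands, with no overlap between the matches in these sequences. The Cd68 promoter lies at chr11:69666171-69666420 on the minus strand, the Axl promoter at chr7:25788734-25788983 on the minus strand, the Mrc1 promoter at chr2:14229164-14229413 on the plus strand and the Cd163 promoter at chr6:124304401-124304650 on the plus strand.
Cd68: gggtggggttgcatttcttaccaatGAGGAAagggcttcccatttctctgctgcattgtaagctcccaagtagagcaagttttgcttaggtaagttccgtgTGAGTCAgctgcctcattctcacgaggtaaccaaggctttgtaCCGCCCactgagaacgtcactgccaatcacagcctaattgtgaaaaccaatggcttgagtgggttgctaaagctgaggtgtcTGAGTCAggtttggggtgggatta
Axl: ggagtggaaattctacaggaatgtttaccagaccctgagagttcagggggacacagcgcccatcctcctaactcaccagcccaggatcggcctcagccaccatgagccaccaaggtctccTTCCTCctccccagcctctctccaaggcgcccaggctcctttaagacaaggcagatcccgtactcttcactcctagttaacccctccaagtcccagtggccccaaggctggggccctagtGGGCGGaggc
Mrc1: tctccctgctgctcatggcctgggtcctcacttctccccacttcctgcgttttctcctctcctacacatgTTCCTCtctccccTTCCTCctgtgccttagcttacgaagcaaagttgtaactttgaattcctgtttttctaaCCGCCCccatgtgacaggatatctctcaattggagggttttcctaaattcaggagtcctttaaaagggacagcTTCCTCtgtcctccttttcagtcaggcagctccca
Cd163: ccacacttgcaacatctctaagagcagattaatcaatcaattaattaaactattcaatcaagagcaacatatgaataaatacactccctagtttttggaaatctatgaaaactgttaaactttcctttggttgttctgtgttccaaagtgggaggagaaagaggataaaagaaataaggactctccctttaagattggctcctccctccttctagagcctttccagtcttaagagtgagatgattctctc

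The Cd68 sequence held 1 PU.1 core, 2 AP-1 and Maf cores and 1 GC box. The cores recognized by AP-1 and Maf factors began 149 and 24 bases before the start. The Axl sequence held 1 PU.1 core, which began 130 bases before the start, and 1 GC box. Mrc1 held 3 PU.1 cores, beginning 180, 167 and 35 bases before the start, and 1 GC box, and the Cd163 sequence held none of the 3 motifs. Among 32851 promoters of the same length, 23.3% held the PU.1 core, 4.46% held the AP-1 and Maf core and 32.7% held the GC box. A promoter was also matched for Mertk and Vsig4, so 6 of the 10 members had one. Vsig4 held 2 PU.1 cores and neither of the other motifs, and Mertk held 3 GC boxes and neither of the others. Csf1r, Adgre1, Msr1 and Maf had no sequence to print.

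Sequencing totals ran from 4939874 to 9272984 counts in MKs cultured alone and from 5193949 to 12523616 counts in cocultures. Levels are given as CPM, in which the counts of each library are brought to a common total, scaled by the trimmed mean of M values (TMM), and 3 counts correspond to between 0.282 and 0.664 CPM. The library of coculture replicate 3 stood apart from the other cocultures. It had the largest total, but counts for only 10735 genes against 13104 to 13193 in the other cocultures, and its TMM factor was 0.774. MK and platelet markers, such as Pf4, were present in both groups and summed to between 1917 and 2256 CPM in MKs cultured alone and between 1749 and 2328 CPM in cocultures. Neutrophil markers were also abundant and summed to between 84790 and 86740 CPM in MKs cultured alone, compared with 4243 to 10130 CPM in cocultures.

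Of the 8 members tested, 7 were higher in MKs cocultured with MSCs and none was lower. A gene was called when its fold change was at least 2, its Benjamini-Hochberg adjusted p in the edgeR quasi-likelihood test was at most 0.05 and its mean was at least 1 CPM in a group. By this rule, 20.3% of all genes tested were called, with 12.9% (1515 genes) called higher and 7.42% (870 genes) called lower in cocultures. Scaled instead to the mean log count of the MK and platelet markers, a setting chosen after seeing the data, 1870 genes were higher and 394 lower, the median over all genes moved to 0.81 (log2), and 7 members were still called higher. No tested member was lower at an unadjusted p under 0.05 by edgeR, and DESeq2 also called 7 members higher and 0 lower. The levels of 8 of the 9 members with a row, Mertk being the exception, did not overlap between groups, while 40.4% of all genes tested showed no overlap. Among the tested members, the median log2 fold change was 2.78, and that of all genes was 0.015. The filter asked for 1.27 CPM in 4 libraries. Mrc1 reached this level in 3 MK-only libraries and 4 cocultures, and Mertk in 1 MK-only library and 3 cocultures.

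**Figure D1:**
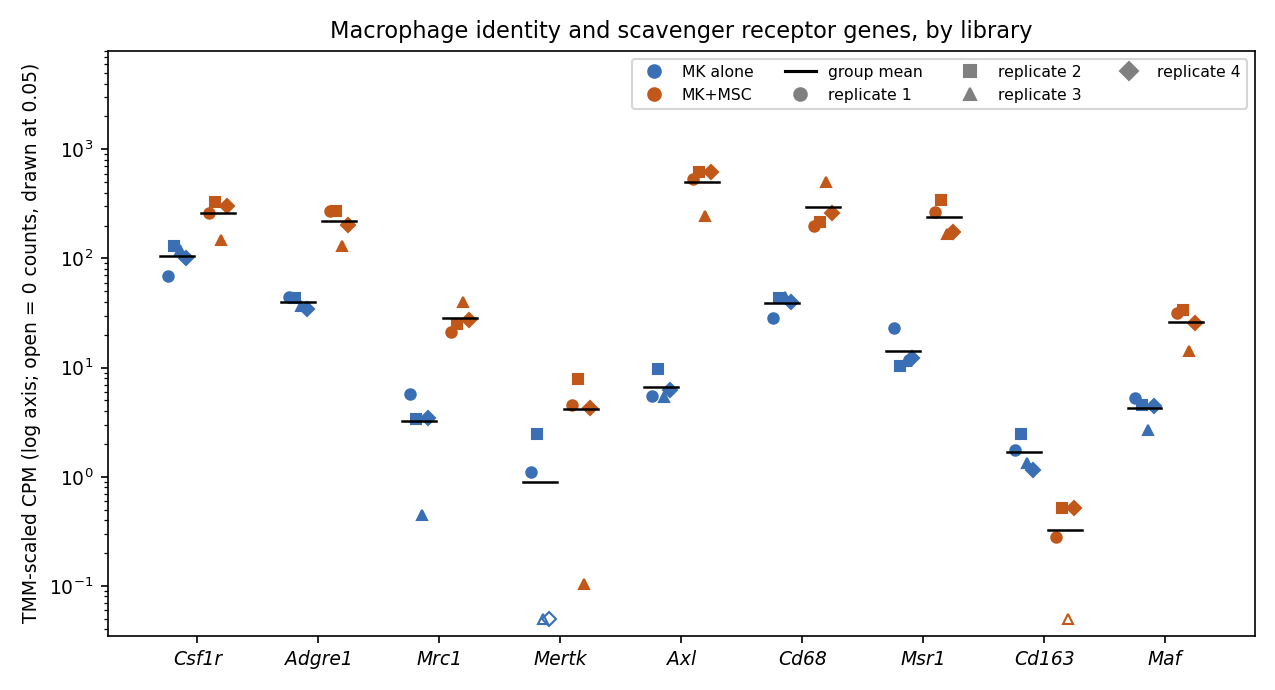
TMM-scaled CPM of each member with a row (log axis) in the 4 libraries of MKs cultured alone (blue) and the 4 cocultures (orange), with symbols for replicate numbers, bars for group means and open symbols for 0 counts. For 7 members every coculture lies above every MK-only library, Cd163 lies the other way near the detection limit, and Mertk overlaps between groups.

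Csf1r, the receptor for CSF1 and IL-34, was detected in every library. On chromosome 18 (GRCm38, 61100598 to 61132149, plus strand), it measured 69.7, 129.9, 120.0 and 100.3 CPM in MKs cultured alone. Cocultures measured 258.8, 326.7, 149.1 and 305.4 CPM. All cocultures were above all MK-only libraries, and coculture replicate 3 was the lowest of its group. Csf1r rose from 104.9 ± 26.5 to 260.0 ± 79.2 CPM (SD, n = 4 per group), with a log2 fold change of 1.31 (SE 0.30, 95% interval 0.63 to 1.98) and an adjusted p of 0.0138 by edgeR's quasi-likelihood test. In these bulk libraries, more cells of a type and more RNA per cell cannot be told apart. Csf1r shares 873 exonic bases with Hmgxb3 on the opposite strand, and the use of strand in counting is not stated. Hmgxb3 itself measured between 4.87 and 13.9 CPM in MKs cultured alone and between 0 and 21.4 CPM in cocultures, and was not called (log2 fold change 0.37, edgeR adjusted p = 0.85).

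Adgre1 encodes F4/80, an adhesion G protein–coupled receptor that is a standard surface marker of murine macrophages. Located on chromosome 17 (57358691 to 57483527, plus strand), it measured 44.7, 43.3, 37.0 and 34.6 CPM in MKs cultured alone. The cocultures gave 271.3, 270.4, 130.1 and 201.2 CPM. MK-only values were tightly spaced, and again coculture replicate 3 was the lowest of its group without reaching the MK-only range. The mean rose 5.47-fold, from 39.9 ± 4.84 to 218.3 ± 67.3 CPM (SD, n = 4 per group), with a log2 fold change of 2.45 (SE 0.27, edgeR adjusted p = 0.000327).

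Cd68, a heavily glycosylated lysosomal membrane protein of phagocytes, lies on chromosome 11 (69664213 to 69666153, minus strand). It measured 28.5, 43.5, 43.9 and 39.5 CPM in MKs cultured alone and 198.9, 216.7, 502.1 and 260.1 CPM in cocultures. Here coculture replicate 3 was the highest of its group, opposite to its place for Csf1r and Adgre1. Mean Cd68 rose 7.58-fold, from 38.9 ± 7.16 to 294.5 ± 140.8 CPM (SD, n = 4 per group), with a log2 fold change of 2.92 (SE 0.34, edgeR adjusted p = 0.000442). Without coculture replicate 3, the log2 fold change was 2.53 and Cd68 was still called.

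Maf encodes a basic leucine zipper transcription factor expressed in resident macrophages, on chromosome 8 (115682942 to 115707794, minus strand). It measured 5.31, 4.55, 2.67 and 4.41 CPM in MKs cultured alone and 31.5, 33.9, 14.1 and 25.5 CPM in cocultures. The groups did not overlap, and replicate 3 was the lowest library of each group. Maf rose from 4.24 ± 1.12 to 26.3 ± 8.82 CPM (SD, n = 4 per group), with a log2 fold change of 2.63 (SE 0.46, edgeR adjusted p = 0.00393). The annotation has Gm15655 on the opposite strand over 440 of its exonic bases, and that gene had no row.

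Among the scavenger and lectin receptors, Msr1 encodes scavenger receptor A, which binds modified lipoproteins and bacterial surfaces. It lies on chromosome 8 (39581685 to 39642673, minus strand) and measured 23.2, 10.5, 11.5 and 12.3 CPM in MKs cultured alone. Coculture values were 268.8, 341.2, 168.6 and 173.8 CPM. The MK-only libraries were low throughout, with replicate 1 above the others, and even the lowest coculture was several-fold above it. Msr1 rose 16.6-fold, from 14.3 ± 5.97 to 238.1 ± 82.7 CPM (SD, n = 4 per group), with a log2 fold change of 4.06 (SE 0.38, 95% interval 3.20 to 4.92, edgeR adjusted p = 0.00014).

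Mrc1, the mannose receptor CD206, takes up mannosylated glycoproteins and is used as a marker of tissue-resident and alternatively activated macrophages. On chromosome 2 (14229392 to 14332057, plus strand), it was scarce in MKs cultured alone, at 5.75, 3.42, 0.445 and 3.43 CPM. Cocultures held 21.3, 25.0, 40.2 and 27.3 CPM. The highest coculture was replicate 3, and the lowest MK-only library was also numbered 3. Mrc1 rose from 3.26 ± 2.17 to 28.5 ± 8.23 CPM (SD, n = 4 per group), with a log2 fold change of 3.14 and a wide 95% interval of 1.56 to 4.72 (edgeR adjusted p = 0.0123). In a fit that blocked on replicate number, Mrc1 was not called (edgeR adjusted p = 0.0724).

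Cd163, the receptor that clears hemoglobin bound to haptoglobin, ran in the other direction at very low levels. On chromosome 6 (124304656 to 124330527, plus strand), it had 8, 24, 12 and 7 counts in MKs cultured alone and 3, 4, 0 and 3 counts in cocultures. As CPM these were 1.77, 2.48, 1.33 and 1.14 against 0.282, 0.518, 0 and 0.514. The groups did not overlap, but each coculture was close to the level of 3 counts. Cd163 did not pass the filter, and without the filter it was not called, with a log2 fold change of -2.35 (SE 0.97, edgeR unadjusted p = 0.038, adjusted p = 0.111). Vsig4, the complement receptor CRIg of resident macrophages, lies on chromosome X (96247203 to 96293438, minus strand) and had no row, so its level is not known.

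Of the TAM receptors, Axl had the largest estimated change of the 8 members tested. It lies on chromosome 7 (25757273 to 25788705, minus strand) and measured 5.53, 9.62, 5.34 and 6.21 CPM in MKs cultured alone. In cocultures it measured 535.7, 614.3, 246.8 and 623.8 CPM. The other cocultures lay close together, and replicate 3 was well below them but far above every MK-only library. Axl rose 75.7-fold, from 6.67 ± 2.002 to 505.2 ± 176.7 CPM (SD, n = 4 per group), with a log2 fold change of 6.23 (SE 0.41, 95% interval 5.31 to 7.15, edgeR adjusted p = 2.68e-05). AXL is also known in fibroblasts and other mesenchymal cells. MSC markers summed to between 14.7 and 22.9 CPM in MKs cultured alone and between 1139 and 3815 CPM in cocultures, and the part of these cells in the Axl level was not tested.

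Mertk, the TAM receptor used by macrophages to engulf apoptotic cells, did not follow Axl past the threshold. It lies on chromosome 2 (128698956 to 128802894, plus strand) and had 5, 24, 0 and 0 counts in MKs cultured alone and 48, 61, 1 and 25 counts in cocultures. The levels were 1.11, 2.48, 0 and 0 CPM against 4.51, 7.89, 0.103 and 4.28 CPM, so coculture replicate 3 lay within the MK-only range. Its log2 fold change of 2.18 had a 95% interval of -1.09 to 5.46 (edgeR adjusted p = 0.314). Without coculture replicate 3, Mertk was called, with a log2 fold change of 2.55 (edgeR adjusted p = 0.0102). Tyro3, the remaining TAM receptor, was not tested and averaged 0.137 CPM in MKs cultured alone and 3.05 CPM in cocultures. Whether Axl and Mertk changed unequally was not tested.

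**Figure D2:**
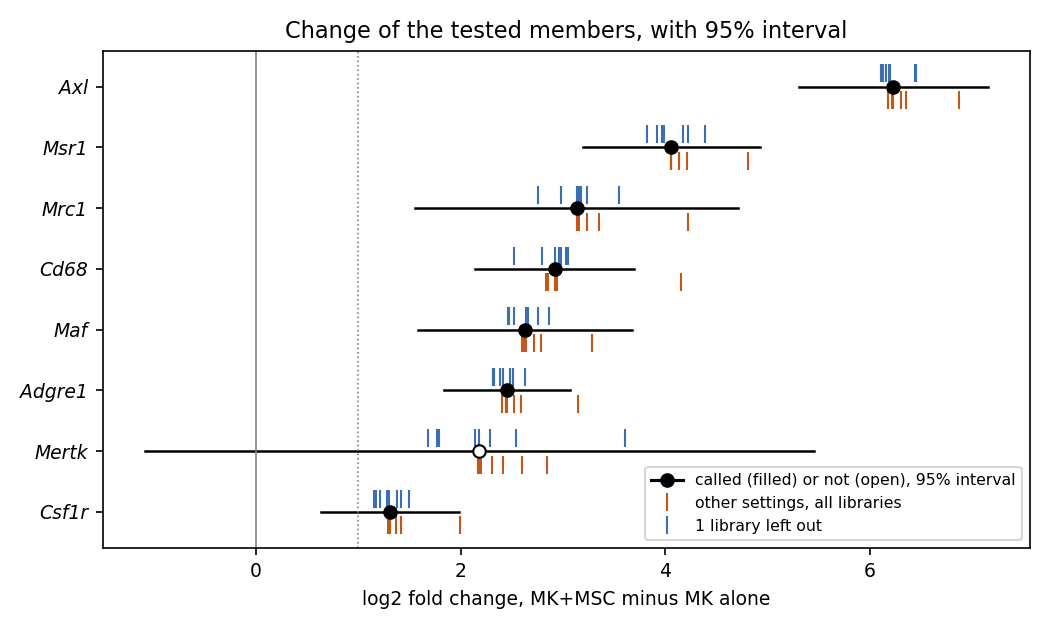
Log2 fold change of each tested member in cocultures relative to MKs cultured alone, with 95% intervals (black lines), values under the other settings (orange ticks), values with 1 library left out (blue ticks) and the fold cutoff of 2 (dotted line). Axl lies farthest to the right at 6.23, Csf1r is nearest to 0 among the called genes at 1.31, and the interval of Mertk spans 0.

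The 7 called members were also called without coculture replicate 3, the library that stood apart. In that fit, the log2 fold changes were 1.496 for Csf1r, 2.64 for Adgre1, 2.99 for Mrc1, 4.22 for Msr1, 2.86 for Maf and 6.44 for Axl. In replicate 3 itself, Csf1r, Adgre1, Msr1, Axl, Maf and Mertk were at their lowest among the cocultures, and Cd68 and Mrc1 were at their highest.

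The order of the members by level per length also differed between groups. Per kilobase of exon, MKs cultured alone had the highest level for Cd68 at 30.9 ± 5.70 CPM per kb, followed by Csf1r at 18.2 ± 4.597 and Adgre1 at 12.3 ± 1.495 (SD, n = 4). Msr1 came next at 2.26 ± 0.94 and Axl at 1.33 ± 0.40 CPM per kb, and Maf, Mrc1, Cd163 and Mertk were each below 1 CPM per kb on average. Neighbours in this order had ranges apart only between Cd68 and Csf1r, Adgre1 and Msr1, and Axl and Maf.

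In cocultures, Cd68 was again highest at 234.3 ± 112.0 CPM per kb, but Axl was second at 100.4 ± 35.1 CPM per kb (SD, n = 4). Adgre1 at 67.4 ± 20.8, Csf1r at 45.0 ± 13.7 and Msr1 at 37.5 ± 13.0 CPM per kb followed. Ranges of neighbours were apart only between Cd68 and Axl and between Msr1 and Mrc1, the latter at 4.47 ± 1.29 CPM per kb. Maf stood at 3.19 ± 1.07, Mertk at 0.968 ± 0.736 and Cd163 at 0.0601 ± 0.0449 CPM per kb.

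**Figure D3:**
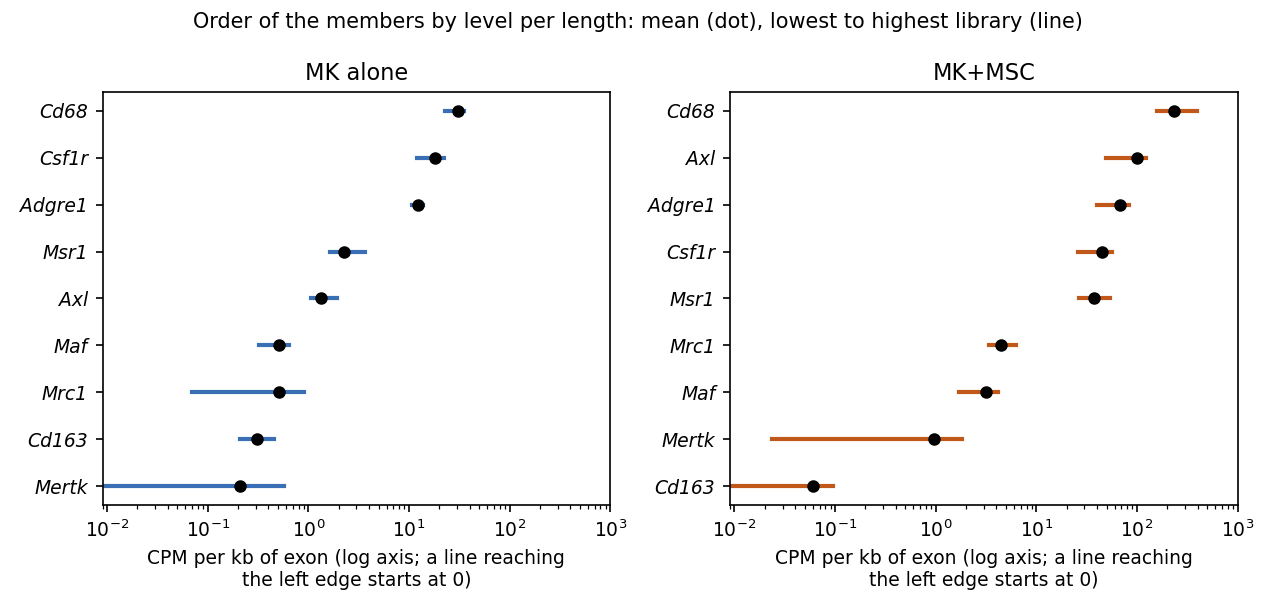
Level per kilobase of exon (log axis) of the 9 members with a row in MKs cultured alone (left) and in cocultures (right), as the mean (dot) and the lowest to highest library (line, 4 libraries each). Axl moves from 1.33 CPM per kb, below Msr1, to 100.4 CPM per kb, second to Cd68, and Csf1r moves from 18.2 to 45.0 CPM per kb, below Axl and Adgre1.

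Set against Csf1r within each library, Axl, Msr1, Adgre1 and Cd68 stood higher in cocultures than in MKs cultured alone. Axl per kb was between 0.051 and 0.091 of Csf1r in MKs cultured alone and between 1.9 and 2.37 times Csf1r in cocultures. The ratio of Msr1 to Csf1r ran from 0.0732 to 0.303 in MKs cultured alone and from 0.518 to 1.03 in cocultures, and that of Adgre1 to Csf1r from 0.55 to 1.14 and from 1.17 to 1.87. For Cd68, the ratio was between 1.54 and 1.88 in MKs cultured alone and between 3.05 and 3.91 in 3 cocultures, with 15.5 in replicate 3. These ranges did not overlap for any of the 4 ratios, which were not tested. The pairs were chosen by hand, and no share over all genes was computed for such ratios. By CPM alone, 40.4% of all genes tested showed no overlap. Csf1r had the smallest log2 fold change of the called members (1.31), so a rise of other called members relative to it follows from that. Of the summed level per kb of the members, Csf1r made up 21.8% to 29.6% in MKs cultured alone and 4.70% to 11.4% in cocultures, and Axl 1.5% to 2.51% and 8.93% to 25.7%.

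The genes whose log2(CPM + 1) tracked Csf1r most closely over the 8 libraries, among 9034 genes with a mean of at least 10 CPM, were Txndc5 (Pearson's r = 0.99), Tm9sf1 (0.99), Tmem86a (0.99), Rcc1 (0.98) and Plxnb2 (0.98). The values are given as a description, since both groups and the low library of replicate 3 enter every r. Of the members, Axl had an r of 0.91 with Csf1r, Adgre1 0.90, Maf 0.88, Msr1 0.82, Mertk 0.76, Cd68 0.76, Mrc1 0.66 and Cd163 -0.61. Many other genes tracked Csf1r more closely. In rank among the 9034 genes, Axl stood at 206, Adgre1 at 242, Maf at 367, Msr1 at 684, Cd68 at 972 and Mrc1 at 1389.

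Ligands of these receptors differed as well. Csf1, the ligand that sustains macrophages, rose from 11.3 ± 3.73 to 531.8 ± 222.2 CPM (SD, n = 4 per group), with a log2 fold change of 5.55 (edgeR adjusted p = 8.9e-05). It measured between 5.97 and 14.5 CPM in MKs cultured alone and between 225.1 and 756.4 CPM in cocultures. The cocultures also held MSC markers, and the part of MSCs in the levels of Csf1 and the other ligands was not tested. Il34, the other CSF1R ligand, was at most 0.653 CPM in every MK-only library and measured 3.57, 3.11, 54.8 and 6.68 CPM in cocultures, so replicate 3 set most of its mean (log2 fold change 5.87, edgeR adjusted p = 0.0155). Gas6, the bridging ligand of AXL, was at 0 counts in 3 of the 4 MK-only libraries and measured 39.5, 54.9, 20.6 and 50.7 CPM in cocultures (edgeR adjusted p = 0.000391). Il34 and Gas6 were under the filter level of 1.27 CPM in every MK-only library. They could only be called higher, here and in the list counts below. Pros1, which encodes protein S, averaged 54.9 ± 12.2 and 116.4 ± 56.8 CPM and was not called (edgeR adjusted p = 0.0985). Tyrobp, the adaptor DAP12 that pairs with TREM2 and other myeloid receptors, averaged 852.3 ± 161.1 CPM in MKs cultured alone and 404.5 ± 218.2 CPM in cocultures and was not called (edgeR adjusted p = 0.0541).

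In the list of CSF1R ligands, adaptors and related cytokine receptors, 3 of 8 tested genes were called higher (Csf1, Il34 and Trem2) and 3 lower (Csf2rb, Csf3r and Flt3), and the median log2 fold change was -0.80. Scaled to the MK and platelet markers' mean log count, 1 gene was lower. DESeq2 called 2 higher and 4 lower, and edgeR called 2 higher without MK-only replicate 1, 2 or 3. Csf3r, the G-CSF receptor of neutrophils, fell by 2.64 on the log2 scale from 185.0 ± 31.1 CPM. In the list of TAM ligands and apoptotic cell recognition genes, 5 of 8 tested were higher (Gas6, Mfge8, Itgav, Itgb5 and Lrp1) and 1 was lower (Cd300lf), with a median of 3.14. Without coculture replicate 3, 7 were higher and 2 lower, in a fit that tested 12267 genes instead of 11722 and more genes of this list. Mfge8, a secreted bridge between phosphatidylserine and integrins, rose from 18.9 ± 6.15 to 273.8 ± 70.5 CPM, and Lrp1, an endocytic receptor also found on mesenchymal cells, from 7.27 ± 2.32 to 215.3 ± 37.8 CPM.

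Other scavenger and lectin receptors were called higher for 9 of 17 tested genes and lower for 3, with a median log2 fold change of 2.02. Cd36, a fatty acid and oxidized lipid receptor also found on platelets, rose from 37.2 ± 9.31 to 1021 ± 427.1 CPM. Lgals3, a galactose-binding lectin abundant in macrophages, rose by 2.02 on the log2 scale, with 10060 CPM in coculture replicate 3 against 1904 to 3110 CPM in the other cocultures. Clec4e and Clec4d, C-type lectin receptors of activated myeloid cells, were not called, at log2 fold changes of 0.53 and -0.28. Marco, a scavenger receptor named after its values were seen, had 0 counts in all MK-only libraries and 5.83 to 26.5 CPM in cocultures. Marco and Mrc2, both called higher, were under the filter level of 1.27 CPM in every MK-only library, so they could only be called higher. The lower genes were Olr1, Cd209a and Clec10a. Clec10a was under that level in every coculture, so it could only be called lower.

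Other macrophage markers were called higher for 8 of 11 tested genes and lower for none, with a median log2 fold change of 4.75, and 1 was lower at an unadjusted p under 0.05 in edgeR while DESeq2 called 0 lower. Gpnmb, a lysosome-associated glycoprotein, rose from 12.9 ± 2.76 to 1330 ± 180.3 CPM, and Ctss, a lysosomal protease, from 243.3 ± 63.2 to 727.6 ± 116.3 CPM. Apoe averaged 117.6 ± 31.8 and 361.6 ± 303.1 CPM and was not called (edgeR adjusted p = 0.0573). Lyz2, the lysozyme of neutrophils and macrophages, dominated the sum of the list and was below the fold cutoff, at a log2 fold change of -0.70 (edgeR adjusted p = 0.033). The complement genes C1qa, C1qb and C1qc, named after their values were seen, were at or below 1.55 CPM in every MK-only library and between 9.29 and 292.9 CPM in cocultures. C1qa was under the filter level of 1.27 CPM in every MK-only library, so it could only be called higher. Cd5l and Spic were lower in every coculture than in every MK-only library, at means of 1.97 and 0.519 CPM for Cd5l, which was not tested, and 1.84 and 0.554 CPM for Spic, which was not called (edgeR adjusted p = 0.238). Fcgr1 was not tested and averaged 0.244 and 3.61 CPM, with overlap between groups.

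Macrophage transcription factors were called higher for 4 of 12 genes (Cebpb, Nr1h3, Pparg and Id3) and lower for 1 (Irf8), with a median log2 fold change of 0.54. Nr1h3 was under the filter level of 1.27 CPM in every MK-only library, so it could only be called higher. Id3 rose from 35.0 ± 6.66 to 211.6 ± 61.5 CPM and Cebpb from 38.9 ± 11.3 to 199.8 ± 166.2 CPM. Irf8, a factor of monocytes and dendritic cells, fell from 113.0 ± 12.3 to 41.8 ± 9.19 CPM. Spi1, which encodes PU.1, averaged 227.5 ± 52.7 CPM in MKs cultured alone and 135.3 ± 110.7 CPM in cocultures, with overlap between groups (edgeR adjusted p = 0.309). Without MK-only replicate 1 or 2, 2 factors were higher, without coculture replicate 3, 3 were lower, and Irf8 was not called when scaled to the mean log count of MK and platelet markers.

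In contrast, phagocyte Fc receptors and integrins were called lower for 5 of 10 tested genes (Fcgr2b, Fcgr3, Itgam, Itgal and Itgb2) and higher for 1 (Cd14), with a median log2 fold change of -1.23, and 2 were lower when scaled to the mean log count of the MK and platelet markers. Without coculture replicate 3, 7 were lower and 2 higher, in a fit that tested 12267 genes instead of 11722. Fcgr3 fell from 442.8 ± 75.1 to 95.8 ± 29.4 CPM. Several of these genes are shared with neutrophils, all 11 of whose markers were lower, and their part in this result was not tested.

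**Figure D4:**
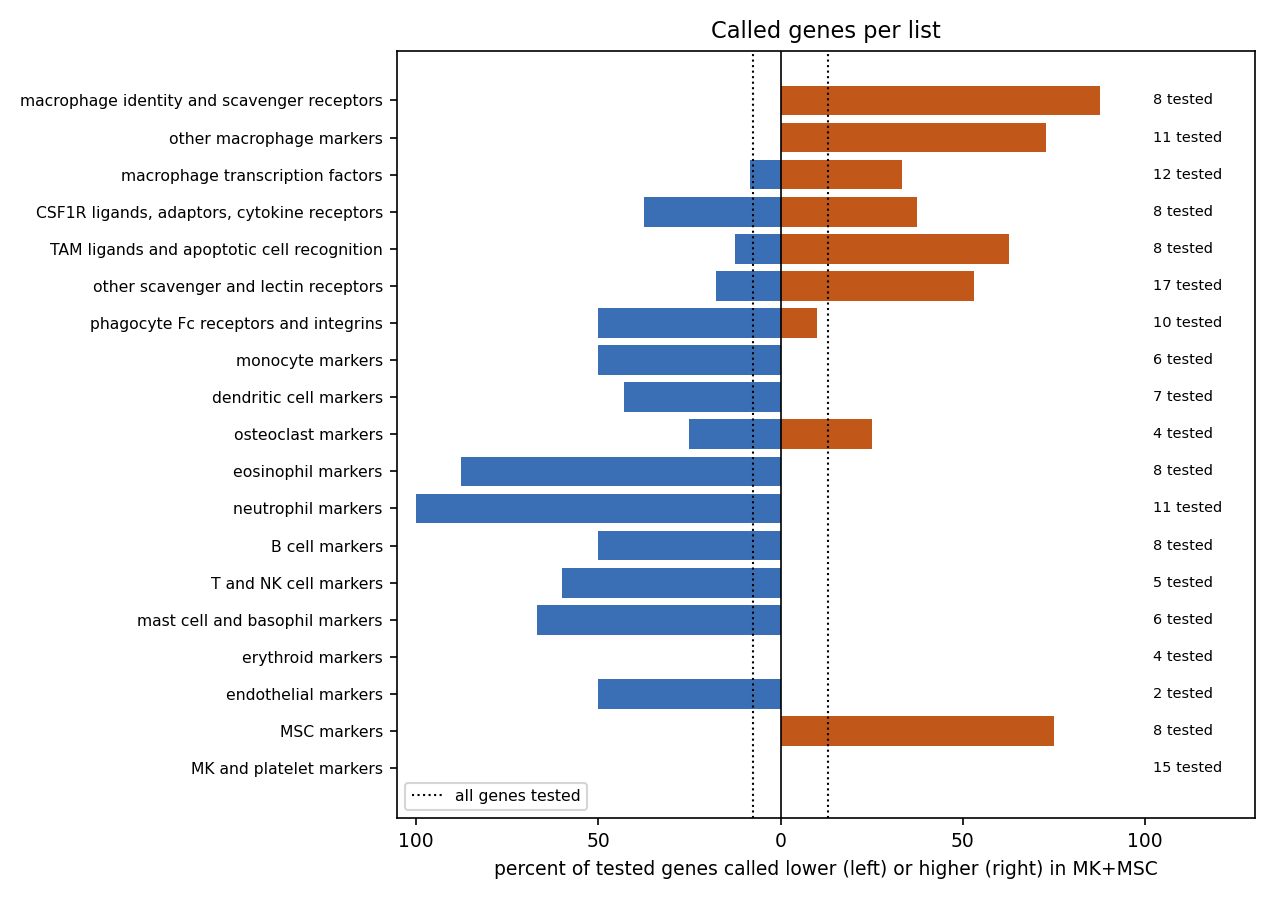
Percent of the tested genes of each list that were called higher (orange, right) or lower (blue, left) in cocultures, with the number tested and dotted lines for all genes (12.9% higher, 7.42% lower). The macrophage identity and scavenger receptor genes lie at the top with 7 of 8 called higher, and the neutrophil markers have 11 of 11 called lower.

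The markers of other cells moved as follows. MSC markers were called higher for 6 of 8 tested genes, with a median log2 fold change of 7.77, and Sparc, a matrix protein, measured between 540.1 and 1409 CPM in cocultures and at most 1.11 CPM in MKs cultured alone. Cxcl12, Col1a1, Col3a1 and Sparc were under the filter level of 1.27 CPM in every MK-only library, so they could only be called higher. Eosinophil markers were called lower for 7 of 8 genes, and their sum was between 1097 and 1823 CPM in MKs cultured alone and between 13.1 and 68.4 CPM in cocultures. Monocyte markers were called lower for 3 of 6 tested genes, including Ly6c2 and Ccr2, with a sum of 1032 to 1287 CPM against 148.4 to 230.7 CPM. Dendritic cell markers were lower for 3 of 7, B cell markers for 4 of 8, T and NK cell markers for 3 of 5, and mast cell and basophil markers for 4 of 6. Osteoclast markers had 1 of 4 higher (Atp6v0d2) and 1 lower (Mmp9), and endothelial markers had 1 of 2 lower (Tek). Atp6v0d2 was under the filter level in every MK-only library, so it could only be called higher. Klrb1c, a T and NK cell marker called lower, was under that level in every coculture and could only be called lower. No erythroid marker of 4 and no MK or platelet marker of 15 was called by edgeR, while 1 in each list was lower at an unadjusted p under 0.05 and by DESeq2. Without coculture replicate 3, 6 T and NK cell, 4 erythroid, 2 endothelial and 2 MK or platelet markers were lower and 1 MK or platelet marker was higher. That fit tested 12267 genes, so its counts can include markers that the main fit did not test. The 6 T and NK cell markers exceed the 5 tested in the main fit. Leaving out any 1 MK-only library left 1 T and NK cell marker lower and 2 or 3 osteoclast markers higher. The filter was run anew in these fits, which tested 12197 to 12469 genes against 11722 in the main fit. Ctsk and Dcstamp were not tested in the main fit. At no more than 0.817 CPM in MKs cultured alone, they could pass the filter only through their levels in cocultures. Tek was not called without MK-only replicate 1, 3 or 4, and 2 B cell markers were lower without MK-only replicate 1 or coculture replicate 2. The part of these cell types in the levels of Csf1r, Adgre1, the other members and the ligands was not tested.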

How the data were processed

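The authors deposited raw gene counts for 8 libraries of murine MKs, 4 cultured alone and 4 with MSCs. Per the paper's methods and the labels, low-input SMART-Seq HT libraries were sequenced paired-end, filtered with fastp and quantified with kallisto on the mm10 transcriptome, and the authors compared groups with DESeq2 and a batch term. The labels do not name the batches, so none was fitted here. Tool versions, summing over transcripts and use of strand are not given in the sources used here. The counts are whole numbers without normalization, and the lowest total of a gene was 11. The labels gave the groups and the replicate numbers. The study counts mice, but the labels do not tie a library to a mouse, so p-values measure the spread between these samples, which may be technical.

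Counts were tested with edgeR 4.0.16 in R 4.3.3 (filterByExpr, TMM factors, robust quasi-likelihood F test, Benjamini-Hochberg adjustment over 11722 genes) on all 8 libraries without covariates. The cutoffs of the study were used, with CPM for TPM: a fold change of 2 or more, an adjusted p not above 0.05, and 1 CPM or more on average in a group. The SE was taken from the F statistic. Alternatives were DESeq2 1.42.0, other scaling factors, no filter, a replicate block and leaving out each library. The test was checked on simulated data with 8-fold changes in 200 genes and the same setting of spread for every gene. No simulated library stood apart as coculture replicate 3 did, so the check does not cover that. The level of 3 counts covers counting error only, since reads carry no molecular identifiers.

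Positions and exon lengths came from GENCODE vM21 on GRCm38, and promoters from a RefSeq table of GRCm38.p6. Levels were compared between genes only per kilobase of exon. The members, the 18 other gene lists and the rules were chosen with earlier results of these data known. Named genes were the members, the ligands and adaptor Csf1, Il34, Gas6, Pros1, Tyro3 and Tyrobp, up to 4 genes of each list by mean CPM, the 5 genes closest to Csf1r by Pearson's r, and all genes of a count of at most 5. Cxcl12 and Mrc2 were named for lying under the filter level in every MK-only library. Some genes are in more than 1 list (Spic, Siglec1, Trem2, Cd14, Flt3, Cd209a, Fcgr1 and Cd5l). 1 gene of these lists is not reported here and was left out of their counts.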

Additional observations from a re-analysis of the deposited data

Results flagged for a closer look

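Axl was the single case in which 1 library lay far from the rest of its group among the 18 groups of 4 libraries screened, 9 members in each condition. In coculture replicate 3, its log2(CPM + 1) was 7.95, which corresponds to 246.8 CPM, while the other cocultures lay between 9.07 and 9.29. The gap to the nearest library made up 0.836 of the range of the group. By chance, about 1 in 20 groups would be marked by this criterion. Axl was called higher with and without this library, at log2 fold changes of 6.23 and 6.44.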

How the results depend on the processing

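Over 7 alternatives on all libraries and 8 that left out 1 library, the log2 fold change of each of the 8 tested members was above 0, Mertk included, whose groups overlap and which was called in 1 of the 15. The number of members called higher was 6 with the replicate block, 8 without coculture replicate 3 and 7 under each of the others. Csf1r ranged from 1.16 to 1.998 on the log2 scale, with an adjusted p of at most 0.0496, Axl from 6.11 to 6.88 and Cd68 from 2.53 to 4.15. Same-numbered libraries correlated at r = 0.37, 0.02, 0.15 and 0.03 in their deviations from the group means. Differently numbered libraries ran from -0.282 to 0.099, below the values of replicates 1 and 3. Not every value was over 0.1, so the numbers were not taken to pair the libraries, which does not show that they share no batch. With the replicate block, Mrc1 had a log2 fold change of 3.35 and was no longer called (edgeR adjusted p = 0.0724), and 1085 genes were called higher and 590 lower against 1515 and 870. Without coculture replicate 3, 2535 genes were called higher and 1884 lower, and leaving out an MK-only library gave 1082 to 1113 higher and 562 to 583 lower. The filter was run anew in these fits, which tested 12267 genes and 12197 to 12469 genes against 11722 in the main fit. Scaling to the mean log count of the MK and platelet markers, chosen after seeing the data, shifted the median of all genes to 0.81 and gave 1870 higher and 394 lower. Under it, 2 phagocyte Fc receptor and integrin genes, 1 gene of the CSF1R list and 0 transcription factors were lower. DESeq2 called 1857 higher and 1259 lower. The causes were not tested. Mertk had 0 or 1 counts in 3 libraries, and Cd163 at most 4 counts in each coculture.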
